A study of Mus musculus with 21 samples.

Results

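Livers of Mdr2 knockout mice (KO, written Mdr2-/- in the labels) were compared with livers of control mice 6 days after a 30% partial hepatectomy. The comparison rests on 6 of the 21 arrays of the series, 3 KO livers (mice 312, 332 and 337) and 3 control livers (mice 303, 392 and 393), chosen by genotype and day. All mice were males aged 9 months, and each array was hybridised with total RNA from 1 liver sample. The labelled strain was FVB129P2 for KO and FVB129P2/FVBNJ for control mice, so genotype and strain background cannot be told apart. The lobe removed at surgery served as day 0, with 6 KO samples (mice 250, 254, 258, 312, 332 and 337) and 3 control samples (mice 263, 265 and 303), and other mice were sampled on day 2. The day 0 samples of mice 312, 332, 337 and 303 came from animals sampled again on day 6. The labels number the mice. The p-values rest on a spread pooled within the 6 groups of genotype and day over all 21 arrays. Some mice gave samples on more than 1 day, and the spread is not that of the 6 compared livers alone.

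Mdr2 is the protein of the gene Abcb4, a transporter in the bile-facing membrane of hepatocytes that moves phospholipid into bile. Without it, bile acids injure the bile ducts, and the liver develops chronic inflammation, scarring and, with age, liver tumours; the series title concerns DNA double-strand breaks and tumour formation in such livers. After part of a liver is removed, the remaining hepatocytes leave quiescence, load the Mcm helicase onto replication origins, copy their DNA and divide, and then return to quiescence. Transcription factors of the E2F family drive the genes of DNA replication, and the inhibitor p21, the product of Cdkn1a, restrains them.

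Abcb4 was measured first, as a check of the labels. Its values were 8.02, 7.25 and 7.93 in KO mice 312, 332 and 337 and 10.20, 10.08 and 10.16 in control mice 303, 392 and 393, on the log2 scale of the deposited values. The groups did not overlap, and the difference was −2.41 ± 0.33 (standard error, SE; adjusted p = 0.000447), the same direction as on day 0 (−1.58). The labels do not say whether the Abcb4 probes lie within the deleted sequence. Array medians were 4.07, 4.05 and 4.10 in the KO livers and 3.88, 3.94 and 3.87 in the control livers, in the same order of mice. The medians thus did not overlap between genotypes. The difference between 3-prime and 5-prime probe sets, which grows as RNA is degraded, ran from −0.35 to 0.08 for Gapdh and from 1.01 to 1.72 for beta-actin in 5 livers, and was 0.94 and 2.72 in control 303. Arrays of other days also enter the model. There the Gapdh difference was 2.03 in KO 337 on day 0, and 1.58 and 9.5 in control mice 263 and 265 on day 2. Of the marker genes, those of hepatocytes averaged between 14.06 and 14.19 in every liver, and those of T or NK cells, B cells, adipocytes and muscle averaged under 4 in all 6.

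Of 7320 genes tested, 127 differed between KO and control livers on day 6 at an adjusted p under 0.05 (limma). In KO, 91 were higher (1.24% of genes tested) and 36 were lower (0.492%). All 127 had 3 KO values that did not overlap the 3 control values. Passing the test favours such separation, so it adds no support of its own. Over all genes tested, KO values were all above control for 8.63% and all below for 10.8%. Of the 127, 109 differed at least 2-fold, 57 of them at least 4-fold, with bounds (below) in place of fitted folds. Named among the higher genes below are collagens and other matrix genes, some of a bile duct and progenitor list, the caveolins and the inflammatory caspases. Among the lower genes are some of DNA replication, the macrophage receptors Marco and Cd163 and several hepatocyte genes. Before the adjustment, 944 genes had a p under 0.05. When each array was centred on its median, which moved differences by −0.18, 160 genes passed, 78 higher and 82 lower. On day 0, 80 of the 91 higher genes were also higher in KO and 14 of the 36 lower genes were also lower, while 3 of the lower genes (Smc2, Mcm7 and Dnajc9) were higher there. The day 0 comparison shares no array with day 6 but shares 4 mice, and in it 6.79% of the genes tested were higher and 2.87% lower in KO. The count of 127 was 82 without KO 312, 61 without KO 337 and 75 without control 393, and 38 when only these 6 livers were fitted. Whichever 1 of the 6 livers was left out, 36 of the higher and 13 of the lower genes passed. A value of log2 4 was taken as the level under which signals carry no order. Where every liver of a group lay under it, the fold is given as a lower bound computed against it.

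**Figure D1:**
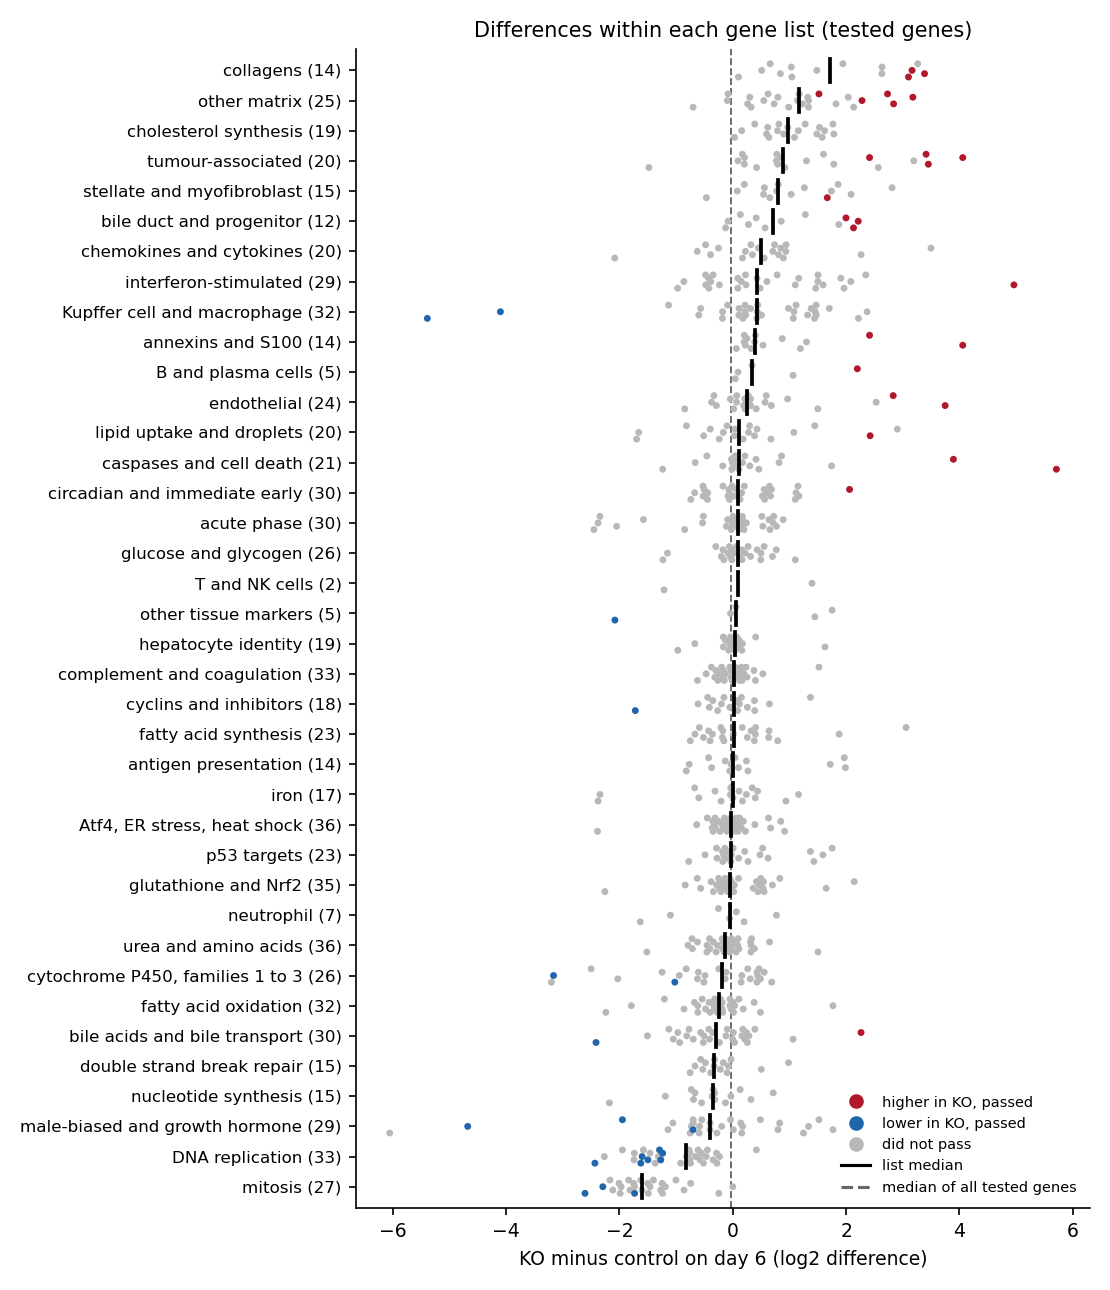
Difference between KO and control livers on day 6 (horizontal axis, log2) for every tested gene of 38 lists, with the number of tested genes in brackets. Each dot is a gene (red, higher in KO; blue, lower; grey, did not pass), the black bar is the list median and the dashed line the median of all 7320 genes, −0.03. The mitosis and DNA replication lists lay lowest, with medians of −1.60 and −0.82, and the collagens highest, at 1.71.

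Several genes of DNA replication were lower in KO than in control livers on day 6, and nearly all others of the list had differences below 0. Of 33 tested genes for origin licensing, the helicase, polymerases and other fork proteins, 7 passed, all lower, and 26 did not pass (background 0.492% lower). The difference was below 0 for 32 of 33, and for 24 (72.7%) every KO value lay below every control value, against 10.8% of all genes tested. Their median difference was −0.82, against −0.03 over all genes. Set against each gene's mean over the 6 livers, the list averaged −0.45, −0.45 and −0.62 in KO mice 312, 332 and 337 and 0.75, 0.34 and 0.44 in control mice 303, 392 and 393. All 3 control livers were therefore above all 3 KO livers. The number of lower genes was 4 without control 303, 4 without control 393 and 3 without KO 337, against 5 or 6 without each of the other livers. When only these 6 livers were fitted, 1 gene of the list passed and none of the 7 did, with adjusted p from 0.0501 (Rpa2) and 0.0518 (Fen1) to 0.13 (Gmnn). With each array centred on its median, the list median was −1.0.

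Mcm5, a subunit of the replicative helicase, lay under log2 4 in KO. Its values were 2.80, 3.46 and 2.85 in KO mice 312, 332 and 337 and 6.44, 5.02 and 4.95 in control mice 303, 392 and 393. It was at least 2.77-fold lower in KO (fitted difference −2.43 ± 0.36, adjusted p = 0.000674). Mcm7, a subunit of the same ring, stood at 7.28, 6.96 and 7.30 in KO and 9.13, 8.34 and 8.87 in control livers (−1.60 ± 0.25, adjusted p = 0.00138). Both passed whichever liver was left out, as did Fen1, the nuclease that trims the lagging strand, at 6.99, 7.06 and 7.13 in KO and 8.46, 8.05 and 8.48 in control livers (−1.27 ± 0.18, adjusted p = 0.00061). All 4 probe sets of Mcm7 gave a negative difference, from −1.60 to −1.04, and 3 of them passed. Fen1 had 2 probe sets, at −1.27 and −1.02, of which 1 passed.

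The other falls of the list depended more on single livers. Gins1, part of the complex that activates the helicase, was at 3.79, 4.32 and 3.58 in KO and 5.65, 5.08 and 5.83 in control livers (−1.62 ± 0.39, adjusted p = 0.0354), and passed only without KO 332 or control 392 when 1 liver was left out (adjusted p up to 0.183). Rfc5, a subunit of the clamp loader, was at 4.56, 4.41 and 4.38 in KO and 5.52, 5.81 and 6.51 in control livers (−1.50 ± 0.30, adjusted p = 0.0108; 0.0566 without KO 337 and 0.0738 without control 393). Gmnn, which encodes the licensing inhibitor geminin, was at −1.24 ± 0.29 (adjusted p = 0.0343) and passed only without KO 312 or control 392 (up to 0.131). Rpa2, of the single-strand binding complex, was at −1.29 ± 0.30 (adjusted p = 0.0288) and missed the threshold without any 1 of the 6 livers, with adjusted p from 0.065 without control 392 to 0.101 without KO 337. The groups did not overlap for any of these 4 genes. Prim1, the primase, at −1.74 ± 0.44 (adjusted p = 0.0532), Rfc4 at −1.74 ± 0.45 and Mcm2 at −1.58 ± 0.41 missed the threshold with groups that did not overlap. Pcna, the sliding clamp, was at 9.57, 9.78 and 9.56 in KO and 10.31, 10.14 and 9.87 in control livers, a difference of −0.47 ± 0.22 that did not pass (adjusted p = 0.39).

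Promoters of replication genes are shown for those with the largest fitted differences among the lower ones (Mcm5, Gins1, Mcm7 and Rfc5; not Fen1, Gmnn and Rpa2), because E2F sites and CCAAT boxes are the classic elements of cell cycle promoters, with the promoter of Casp12, the gene with the largest difference above 0, beside them. Each run is the 250 bases before the gene's start in RefSeq, build GRCm38.p6, read 5′ to 3′ on the gene's strand, and capitals mark a match. The E2F letters searched were TTTGGCGC, TTTCCCGC, TTTGGCGG and TTTCCCGG, with TTTCGCGC added after these promoters had been seen, and CCAAT for the CCAAT box, each on both strands. The Mcm5 window is chr8:75109259-75109508 on the plus strand, the Mcm7 window is chr5:138171884-138172133 on the minus strand, the Rfc5 window is chr5:117389024-117389273 on the minus strand, and the Casp12 window is chr9:5345226-5345475 on the plus strand. The table held no promoter for Gins1. It held a second Mcm7 window, chr5:138171267-138171516 on the minus strand, which has no E2F spelling and 1 CCAAT box and is not printed.
Mcm5: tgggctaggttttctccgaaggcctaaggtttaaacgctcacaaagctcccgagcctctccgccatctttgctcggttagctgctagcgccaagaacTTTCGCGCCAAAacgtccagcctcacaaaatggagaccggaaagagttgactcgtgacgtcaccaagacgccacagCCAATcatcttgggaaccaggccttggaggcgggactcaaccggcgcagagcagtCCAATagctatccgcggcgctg
Mcm7: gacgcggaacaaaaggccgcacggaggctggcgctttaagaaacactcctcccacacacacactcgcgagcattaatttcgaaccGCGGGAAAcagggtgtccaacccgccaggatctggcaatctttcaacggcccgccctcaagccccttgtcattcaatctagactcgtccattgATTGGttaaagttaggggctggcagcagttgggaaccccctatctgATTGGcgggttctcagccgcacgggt
Rfc5: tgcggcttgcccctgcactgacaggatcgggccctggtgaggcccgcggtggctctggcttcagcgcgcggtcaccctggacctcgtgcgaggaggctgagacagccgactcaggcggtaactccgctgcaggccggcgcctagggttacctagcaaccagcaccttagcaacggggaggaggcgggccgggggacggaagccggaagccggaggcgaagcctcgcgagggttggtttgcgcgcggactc
Casp12: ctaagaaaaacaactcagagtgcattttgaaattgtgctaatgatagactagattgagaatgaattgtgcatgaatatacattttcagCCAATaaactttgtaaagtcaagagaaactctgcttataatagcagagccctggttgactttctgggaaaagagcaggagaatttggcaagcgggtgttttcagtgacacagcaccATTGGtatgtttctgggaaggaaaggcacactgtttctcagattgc
Mcm5 carried GCGCCAAA, an E2F spelling on the other strand, starting 149 bases before the start, which overlaps the added spelling starting at 153, and CCAAT at 77 and 22. Mcm7 carried GCGGGAAA at 165 and ATTGG, the CCAAT box on the other strand, at 72 and 26. The Rfc5 window held none of these letters, and the Casp12 window held CCAAT at 162 and ATTGG at 46 but no E2F spelling. Of 28 replication genes with a promoter in the table, 5 (17.9%) held one of the 4 E2F spellings, against 5.78% of the 6017 tested genes with a promoter. With the added spelling the shares were 25.0% and 6.40%. A CCAAT box was found in 60.7% of replication genes and 85.7% of 21 mitosis genes, against 40.8% of tested genes. Of the mitosis genes, 4.76% held one of the 4 E2F spellings, below the share of tested genes. A gene with several windows counts if any of them holds a match. Over all windows of this length in the table, 2.68% held an E2F spelling and 33.8% a CCAAT box. A match describes the letters and not a bound site.

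A few mitosis genes were lower in KO too, but the control livers were far apart. Of 27 tested genes, 3 were lower, 24 did not pass, 26 had a negative difference and 9 (33.3%) had KO values all below control, against 0.492% lower and 10.8% all below among all genes tested. When only these 6 livers were fitted, the 3 calls were lost, with adjusted p of 0.13 for Top2a, 0.181 for Smc2 and 0.332 for Pbk. Against the genes' means, the list averaged −0.55, −0.83 and −0.90 in KO mice 312, 332 and 337 and −0.86, 0.67 and 2.46 in control mice 303, 392 and 393. Control 393 was the highest liver, and control 303, which had the highest Mcm5 and Mcm7, lay within the KO range. The list median was −1.60, or −1.46 with genes under log2 4 in a group set at their bound. Without control 303, 20 of the 27 genes were lower, with a median of −2.54; without control 393 or KO 337, 1 was, and the median without control 393 was −0.64. Control 303 was also the liver with the largest difference between 3-prime and 5-prime probe sets, and the part of this in the result was not tested.

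Top2a, the topoisomerase that untangles chromosomes, was at 3.49, 3.17 and 3.33 in KO mice 312, 332 and 337 and 4.82, 5.94 and 7.05 in control mice 303, 392 and 393. It was at least 3.83-fold lower in KO (adjusted p = 0.00138) and passed whichever liver was left out. The condensin subunit Smc2 was at 4.35, 4.34 and 3.62 in KO and 5.76, 5.15 and 6.60 in control livers (−1.73 ± 0.33, adjusted p = 0.00765; 0.0638 without KO 337 and 0.0524 without control 393). Pbk, a mitotic kinase, was at least 3.82-fold lower (adjusted p = 0.0371) but passed only without control 303 when 1 liver was left out (up to 0.171). Outside the list, 3 further cell cycle genes were among those with the largest fitted differences below 0: Cdca5, which holds sister chromatids together, Incenp, of the chromosomal passenger complex, and the S-phase factor Tcf19. Cdca5 was at 2.83, 2.84 and 3.18 in KO and 4.89, 4.97 and 7.63 in control livers, at least 3.56-fold lower (adjusted p = 0.00348). Incenp differed by −1.76 ± 0.33 (adjusted p = 0.00667), and Tcf19 was at least 3.47-fold lower (adjusted p = 0.0223; up to 0.0971, passing only without KO 332 or control 303). Cdk1, the mitotic kinase proper, and Mki67, the proliferation marker, did not pass. Mki67 was at 5.03, 5.0 and 5.07 in KO and 5.81, 6.75 and 8.05 in control livers (−1.84 ± 0.54, adjusted p = 0.112), and Cdk1 at 5.68, 5.54 and 5.47 in KO and 5.47, 7.69 and 9.44 in control livers (−1.97 ± 0.66, adjusted p = 0.168).

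**Figure D2:**
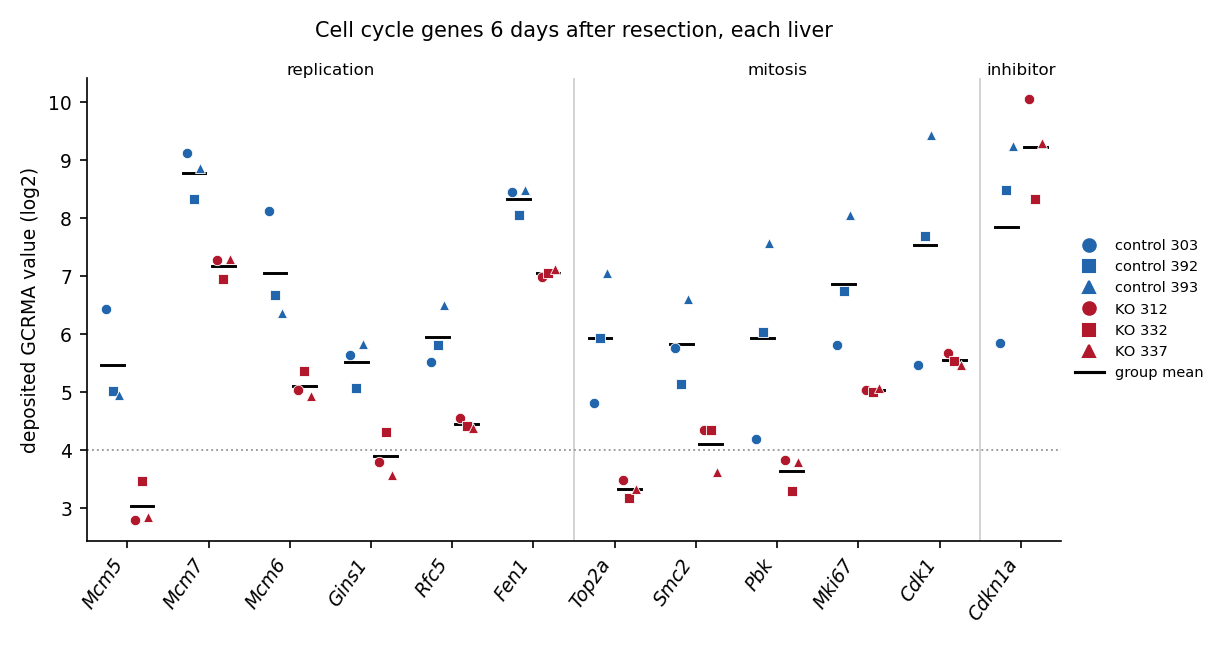
Deposited log2 value of 12 cell cycle genes (vertical axis) in each of the 3 control (blue) and 3 KO (red) livers on day 6, with the symbol giving the mouse and the black bar the group mean; the dotted line marks log2 4. Replication genes separated the groups in every liver shown, whereas for Cdk1 control 303, at 5.47, lay at the KO level while control 393 reached 9.44.

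For some of these genes the difference had changed since surgery. The difference between genotypes on day 6 minus that on day 0, tested in the same model, passed for 12 genes (0.164% of genes tested), and 392 had an unadjusted p under 0.05. Of the 12, 11 had moved down, and 10 of these were higher on day 6 than on day 0 in control livers. In KO, 0 of the 12 passed between these days (limma), and 1 had an unadjusted p under 0.05. Both changes are parts of the contrast that chose these 12 genes, so the counts add no support of their own. Across all genes tested, 155 (2.12%) were higher and 54 (0.738%) lower on day 6 than on day 0 in control livers, and 10 (0.137%) higher and 0 lower in KO livers, where 186 lower genes had an unadjusted p under 0.05. KO groups held 6 and 3 livers and control groups 3 and 3.

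Mcm6, a further helicase subunit, averaged 5.61 ± 0.67 (SD, n = 6) in KO and 3.13 ± 0.76 (SD, n = 3) in control livers on day 0. On day 6 it averaged 5.11 ± 0.23 in KO and 7.06 ± 0.94 in control livers (SD, n = 3 each), so the order of the genotypes had reversed. The fitted change in the difference was −4.42 ± 0.76 (SE, adjusted p = 0.0153), or −3.55 with values under log2 4 set to 4, which the 3 control livers of day 0 were, although the day 6 difference on its own did not pass (−1.95 ± 0.58, adjusted p = 0.112). Mki67 averaged 5.03 ± 0.61 in KO and 2.90 ± 0.16 in control livers on day 0 and 5.03 ± 0.04 and 6.87 ± 1.12 on day 6, a fitted change of −3.97 ± 0.72 (adjusted p = 0.0239), or −2.87 with the control livers of day 0 set to log2 4. Stathmin (Stmn1), which destabilises microtubules, changed by −3.75 ± 0.63 (adjusted p = 0.0127), with no value under log2 4. On day 2 neither gene passed, with KO minus control at 0.17 for Mki67 (adjusted p = 0.886) and −0.11 for Stmn1 (adjusted p = 0.916). In the other direction, Klf1, an erythroid transcription factor, changed by 1.64 ± 0.28 (adjusted p = 0.0127). Its control mean was 4.90 on day 0, and on day 6 every liver of both genotypes lay under log2 4. Of the replication genes that were lower on day 6, Fen1 was already lower in KO at surgery (−0.90), while Mcm7 was higher there (0.71) and Mcm5 did not pass (0.81). The number of genes with a changed difference was 4 without the day 0 sample of control 303 and 41 without its day 6 sample, and 5 to 7 without KO 312, 332 or 337 on day 6 or control 263 on day 0.

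**Figure D3:**
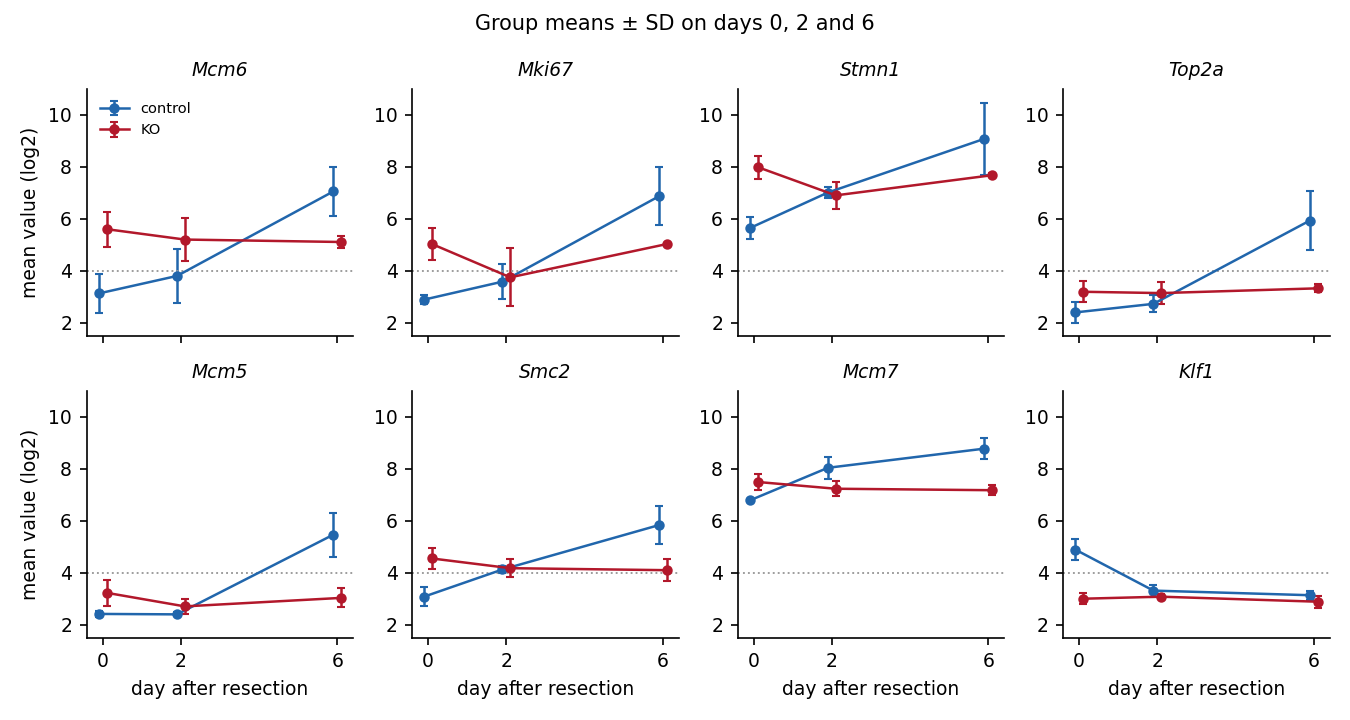
Mean log2 value ± SD (vertical axis) of 8 genes in control (blue) and KO (red) livers on days 0, 2 and 6 after resection, with n = 6 for KO on day 0 and n = 3 for all other points. For 7 genes the control mean climbed above the KO mean by day 6, as in Mcm6, from 3.13 to 7.06. For Klf1 the control mean fell from 4.90 to 3.14. The genes were chosen from those whose genotype difference changed between days 0 and 6, which favours such shifts.

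In lists of cell cycle regulators, p53 targets, break repair and nucleotide synthesis, 0 or 1 gene passed. Of 18 cyclins, kinases and inhibitors tested, 1 passed: E2f8, an E2F family repressor that is itself an E2F target, was at 3.74, 3.83 and 3.69 in KO and 5.73, 5.83 and 4.86 in control livers, at least 2.78-fold lower (adjusted p = 0.0334), and passed only without control 393 (up to 0.13). Over all genes tested, 1.24% were higher and 0.492% lower, so 0 or 1 call in lists of this size does not set them apart. An unadjusted p under 0.05 (limma) was found for 944 of all 7320 genes. Cyclin D1 (Ccnd1) was at 10.58, 10.37 and 9.29 in KO and 10.17, 9.79 and 9.93 in control livers, which overlap (0.12 ± 0.57, adjusted p = 0.969). Of 23 tested p53 targets, 0 passed (limma), 4 had an unadjusted p under 0.05, and the median was −0.03. Cdkn1a was at 10.05, 8.34 and 9.29 in KO and 5.85, 8.48 and 9.24 in control livers, so that only control 303 stood below KO (1.37 ± 0.995, adjusted p = 0.658); on day 0 it was higher in KO by 3.80 (adjusted p = 0.00767). Of 15 tested genes of double-strand break repair, 0 passed, 2 had an unadjusted p under 0.05, and the median was −0.32 (−0.21 without control 393). The DNA damage adaptor Trp53bp1 was at 0.98 ± 0.47 (adjusted p = 0.392) and the end-binding subunit Xrcc6 at −0.53 ± 0.22 (adjusted p = 0.296). Nucleotide synthesis had 0 of 15 past the threshold, 5 at an unadjusted p under 0.05 and a median of −0.35 (−0.22 without KO 312), with thymidine kinase Tk1 at −2.18 ± 0.67 (adjusted p = 0.128).

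Some collagens and other matrix genes were higher in KO livers. Among 14 tested collagens, 3 were higher and 11 missed the threshold (background 1.24% higher), with all 14 differences above 0, a median of 1.71 (1.11 without KO 337) and KO values all above control for 10 (71.4%, against 8.63% of genes tested). Of 25 other matrix genes, 5 were higher and 20 missed the threshold, with a median of 1.17 (0.80 with members at their bound). The collagens averaged 0.51, 0.37 and 1.88 in KO mice 312, 332 and 337, and −0.63, −1.08 and −1.05 in control mice 303, 392 and 393, so KO 337 was the highest liver and KO 332 the lowest of its group. In these whole-liver samples, more cells of a type and more RNA per cell cannot be told apart. The count of other matrix genes was 1 without KO 337 and 1 without control 393, 3 without KO 312, control 303 or control 392 and 7 without KO 332; that of collagens was 2 without KO 312, KO 337 or control 392. Markers of the mesothelium that covers the liver were highest in KO 337, with Msln at 7.0, Upk3b at 5.92 and Wt1 at 4.06. Their mean ran from 2.67 to 5.66 in KO and from 2.75 to 3.11 in control livers, and their part in the matrix values was not tested.

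Col6a3, a chain of the beaded-filament collagen VI, was at 6.84, 6.29 and 8.03 in KO mice 312, 332 and 337 and 3.86, 3.68 and 3.47 in control mice 303, 392 and 393. It was at least 8.30-fold higher in KO (adjusted p = 0.00061), and Col6a1, another chain of the same trimer, at least 6.50-fold (adjusted p = 0.0185; not past it without KO 312, KO 337 or control 392, up to 0.123). Col4a5, of basement membranes, was at 6.27, 5.36 and 7.03 in KO and 3.41, 2.60 and 3.35 in control livers, at least 4.66-fold higher (adjusted p = 0.00061). The fibrillar collagen Col1a1 did not pass, at 5.74, 6.24 and 8.40 in KO and 4.37, 4.45 and 3.67 in control livers (2.63 ± 1.02, adjusted p = 0.263), although its groups did not overlap. The elastase Mmp12, made by macrophages, was at 6.17, 6.36 and 6.75 in KO and 3.36, 2.86 and 3.53 in control livers, at least 5.38-fold higher (adjusted p = 0.00025). Col6a3, Col4a5 and Mmp12 passed whichever liver was left out. The small proteoglycan lumican (Lum) was at 9.37, 8.56 and 10.35 in KO and 6.95, 7.29 and 5.53 in control livers (2.84 ± 0.59, adjusted p = 0.0147; 0.107 without KO 337 and 0.0944 without control 393). Biglycan (Bgn, 1.52 ± 0.33), the basement membrane linker Nid1 (2.28 ± 0.52) and the gelatinase Mmp2 (at least 2.43-fold) passed too. Of these, Bgn missed the threshold without KO 312, KO 337, control 392 or control 393 (up to 0.112), Nid1 without KO 337, control 303 or control 393 (up to 0.183), and Mmp2 without any liver but KO 332 (up to 0.214). Among the larger differences above 0 outside the lists were 2 further matrix proteins: Mgp, an inhibitor of calcification, at 8.53, 6.28 and 9.13 in KO and 3.40, 4.78 and 3.20 in control livers (4.19 ± 0.70, adjusted p = 0.00268), and Smoc2, at least 5.68-fold higher (adjusted p = 0.000539).

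Genes of the cells that make scar matrix passed less often. Of 15 tested stellate cell and myofibroblast genes, 1 passed, the receptor Tgfbr2, at 8.45, 8.27 and 8.51 in KO and 7.55, 6.77 and 5.91 in control livers (1.67 ± 0.39, adjusted p = 0.0315; when 1 liver was left out it passed only without control 303, up to 0.172). The share of higher genes over all genes tested was 1.24%. The list median was 0.80 and 14 of 15 differences were above 0. Pdgfrb, a defining receptor of these cells, was at 8.55, 6.69 and 8.74 in KO and 6.55, 6.23 and 5.63 in control livers, and did not pass (1.86 ± 0.50, adjusted p = 0.072).

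Bile duct and progenitor genes had 3 of 12 higher, against 1.24% of all genes tested, and 9 that did not pass. The median was 0.71 (0.49 with members at their bound, 0.41 without KO 337), with 10 differences above 0 and 2 below. KO values lay all above control for 4 genes (33.3%, against 8.63% of all genes tested) and all below for 1 (8.33%, against 10.8%). Tspan8, a membrane protein of duct and tumour cells, was at 5.25, 5.03 and 4.76 in KO and 2.71, 2.85 and 2.84 in control livers, at least 2.02-fold higher (adjusted p = 0.000674). The sodium-glucose transporter Slc5a1 was at 2.13 ± 0.36 (adjusted p = 0.0027), and E-cadherin (Cdh1) at 10.06, 9.92 and 10.13 in KO and 8.45, 7.39 and 8.28 in control livers (2.00 ± 0.36, adjusted p = 0.00443). These 3 passed whichever liver was left out. The duct keratin Krt19, at 4.37, 3.34 and 4.98 in KO and 3.19, 3.53 and 3.41 in control livers, overlapped between groups (0.85 ± 0.42, adjusted p = 0.411). So did the duct marker Sox9, which averaged 5.15 in KO and 4.87 in control livers (limma, adjusted p = 0.898). The duct markers Krt7 and Epcam lay under the filter for low values. Ccnb1, Trp53 and Spp1 had no probe set used here, and Afp and Tnf lay under the filter for low values.

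The largest difference above 0 was that of Casp12, a caspase of the inflammatory group. It was at 8.65, 9.56 and 9.56 in KO mice 312, 332 and 337 and at 3.92, 3.67 and 3.05 in control mice 303, 392 and 393, at least 38.2-fold higher in KO (adjusted p = 3.78e-07). Its 2 probe sets gave 5.22 and 5.71. Casp4, which senses bacterial lipopolysaccharide inside cells, was at 7.12, 7.93 and 7.12 in KO and 4.32, 3.45 and 2.72 in control livers (3.89 ± 0.65, adjusted p = 0.00242). The other 19 of 21 caspase and cell death genes did not pass (background 1.24% higher). Ubd, an interferon-inducible ubiquitin-like protein, was at 9.39, 9.50 and 8.15 in KO and 5.90, 3.83 and 2.43 in control livers (4.96 ± 0.87, adjusted p = 0.00379). It was the single gene of 29 interferon-stimulated ones to pass (background 1.24% higher). On day 0 the differences were 5.03 for Casp12, 4.25 for Casp4 and 5.69 for Ubd.

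Genes known from liver tumours and injured liver followed. Of 20 tested, 4 were higher, against 1.24% of all genes tested, and 16 did not pass. The list was chosen with earlier results of these data known, so this share describes it and adds no support. The median was 0.89, or 1.5 without control 303 and 0.51 without control 393. Anxa5, a calcium-dependent membrane binder, was at 11.67, 11.57 and 12.17 in KO and 8.24, 7.87 and 7.13 in control livers (4.06 ± 0.36, adjusted p = 1.91e-06), and its relative Anxa2 was at 2.41 ± 0.49 (adjusted p = 0.012; 0.0961 without KO 337 and 0.0641 without control 393). Golm1, a Golgi protein raised in liver disease, was at 7.13, 7.25 and 7.48 in KO and 3.08, 3.88 and 4.55 in control livers (3.45 ± 0.49, adjusted p = 0.000539). The trefoil peptide Tff3 was at least 4.27-fold higher (adjusted p = 0.0371; it passed only without KO 332, up to 0.196), at 7.08, 4.31 and 6.89 in KO, where KO 332 was low. The count was 2 without KO 337 or control 393 and 6 without KO 332. Both caveolin genes were higher: Cav1, which shapes caveolae, was at 7.84, 7.77 and 7.94 in KO and 3.74, 3.21 and 5.36 in control livers (3.75 ± 0.53, adjusted p = 0.000539), and its partner Cav2 was at 2.83 ± 0.58 (adjusted p = 0.0123; 0.0741 without KO 337, 0.0511 without control 393 and 0.0515 without control 392). They were the only 2 of 24 endothelial genes to pass, against 1.24% of all genes tested, and 19 of the 24 differences were above 0. The sinusoidal marker Clec4g averaged 10.04 in KO and 10.08 in control livers (adjusted p = 0.985). Lyve1, another endothelial marker, was at 7.59, 4.70 and 5.64 in KO and 4.57, 3.51 and 2.26 in control livers. Its groups did not overlap, but it did not pass (adjusted p = 0.0868). Slpi, an inhibitor of leukocyte proteases, was at 11.85, 11.63 and 12.31 in KO and 8.78, 8.59 and 7.81 in control livers (3.54 ± 0.54, adjusted p = 0.001), and the transcription factor Sox4 at 8.37, 7.03 and 8.14 against 2.18, 4.44 and 4.44 (4.16 ± 0.57, adjusted p = 0.000444). Gipc2, a scaffold protein, was at 7.29, 7.03 and 7.76 against 4.33, 3.56 and 3.55 (3.55 ± 0.30, adjusted p = 7.65e-07). Tinag, a basement membrane protein, was at least 4.80-fold higher, but missed the threshold without KO 312, KO 332 or control 393 (up to 0.0928). Gpx3, a secreted glutathione peroxidase, was at 3.59 ± 0.86 (adjusted p = 0.0358) and passed only without KO 332 or control 303 (up to 0.2). The microtubule protein Mapt, at 3.54 ± 0.64 (adjusted p = 0.00443), passed whichever liver was left out.

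**Figure D4:**
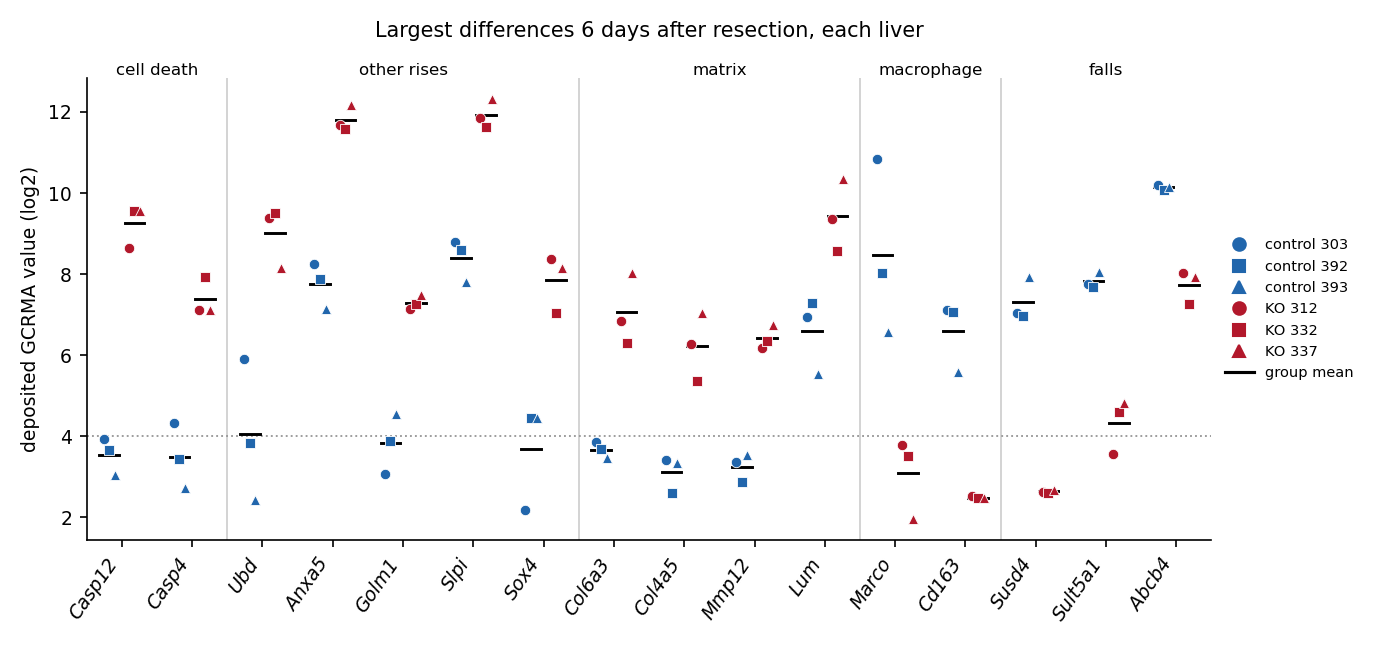
Deposited log2 value (vertical axis) of 16 genes with large differences in each of the 3 control (blue) and 3 KO (red) livers on day 6; the symbol gives the mouse, the black bar the group mean and the dotted line log2 4. The genes were chosen from those that passed, which favours groups that do not overlap, and red and blue points overlap for none. The KO livers lie under log2 4 for Marco, Cd163 and Susd4.

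Among macrophage genes, 2 scavenger receptors were lower in KO than in control livers, and the rest of the list did not pass. Of 32 tested Kupffer cell and macrophage genes, 2 were lower, against 0.492% of all genes tested, 30 did not pass and 24 had a difference above 0. The median was 0.43 (0.27 with members at their bound), but −0.15 without control 393, 0.15 without KO 312, 0.77 without KO 337 and 1.02 without control 303. Cd163, the receptor that clears haemoglobin, was at 2.52, 2.47 and 2.47 in KO and 7.12, 7.06 and 5.58 in control livers, at least 6.01-fold lower (adjusted p = 7.65e-07). It was also lower on day 0 (−3.39) and passed whichever liver was left out. Marco, a receptor for particles and bacteria, was at 3.79, 3.51 and 1.95 in KO and 10.83, 8.03 and 6.56 in control livers, at least 22.2-fold lower (adjusted p = 0.0421; when 1 liver was left out it passed only without control 393, up to 0.2). On day 0 it averaged 2.15 in KO and 2.69 in control livers, and control livers were higher on day 6 than on day 0 (5.78, adjusted p = 0.0208), whereas the KO livers lay under log2 4 on both days. The change in the difference between days did not pass (−4.85, adjusted p = 0.612). The defining Kupffer cell markers were present in both groups. Clec4f was at 10.21, 10.04 and 7.04 in KO and 9.35, 9.97 and 8.52 in control livers, and Vsig4 at 10.68, 9.53 and 8.76 in KO and 10.36, 9.54 and 8.39 in control livers. The 8 markers averaged between 6.47 and 8.38 in KO and between 7.48 and 9.98 in control livers, Cd163 and Marco included.

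Several hepatocyte genes were lower in KO livers. Susd4, a complement regulator, was at 2.63, 2.60 and 2.68 in KO and 7.03, 6.97 and 7.94 in control livers, at least 9.94-fold lower (adjusted p = 0.000283). The sulfotransferase Sult5a1 was at 3.55, 4.61 and 4.82 in KO and 7.76, 7.67 and 8.06 in control livers (−3.50 ± 0.51, adjusted p = 0.00061). Lifr, the receptor for leukaemia inhibitory factor, was at 9.17, 9.19 and 9.69 in KO and 11.28, 10.89 and 11.72 in control livers (−1.95 ± 0.35, adjusted p = 0.00425). On day 0 the differences were −5.21, −4.67 and −2.35, and on day 6 these 3 genes passed whichever liver was left out. Lifr had 2 probe sets, at −1.95 and −0.55, of which 1 passed when every probe set was tested on its own. Of 29 tested genes that are male-biased or belong to the growth hormone axis, 3 were lower (Susd4, Lifr and the urinary protein Mup5), 26 did not pass, and the median was −0.40 (−0.18 without KO 312, −0.20 without control 303 and −0.26 without control 393). Among all genes tested 0.492% were lower. Of 26 cytochromes of families 1 to 3, 2 were lower: Cyp2b10, a target of the xenobiotic receptor CAR, at 3.35, 6.63 and 4.73 in KO and 7.53, 8.03 and 8.64 in control livers (−3.16 ± 0.72, adjusted p = 0.0275), and Cyp3a44 (−1.02 ± 0.23, adjusted p = 0.0223). When 1 liver was left out, Cyp2b10 passed only without KO 332 or control 303 (up to 0.147), Cyp3a44 only without control 303 (up to 0.115), and Mup5 only without KO 332 or control 392 (up to 0.139). The steroid dehydrogenase Hsd3b5, was at 2.59, 2.99 and 5.92 in KO and 9.69, 8.39 and 11.58 in control livers, and did not pass (−6.05 ± 1.54, adjusted p = 0.0532). Beside Abcb4, Abcb1b, a drug transporter of the same family, was higher, at 7.03, 5.88 and 7.23 in KO and 4.16, 4.23 and 4.96 in control livers (2.26 ± 0.46, adjusted p = 0.012; 0.0662 without KO 312, 0.0874 without KO 337 and 0.0546 without control 392). The other 28 of 30 bile acid and bile transport genes did not pass (background 1.24% higher and 0.492% lower). Cyp7a1, the first enzyme of bile acid synthesis, was at 9.64, 9.58 and 9.27 in KO and 9.78, 7.75 and 10.19 in control livers (0.26 ± 1.21, adjusted p = 0.967).

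In lists of general hepatocyte function no gene passed, which does not show that levels were equal. Over all genes tested, 1.24% were higher and 0.492% lower, so 0 calls in lists of this size do not set them apart. An unadjusted p under 0.05 (limma) was found for 944 of all 7320 genes. Of 19 hepatocyte identity genes, 0 passed (limma) and 1 had an unadjusted p under 0.05, with a median of 0.03 and albumin (Alb) at 14.96, 15.04 and 15.07 in KO and 14.74, 15.08 and 15.12 in control livers (0.04 ± 0.14, adjusted p = 0.949). Acute phase (30 genes), complement and coagulation (33), fatty acid synthesis (23), fatty acid oxidation (32), urea and amino acids (36) and glucose and glycogen (26) had 0 past the threshold, with medians between −0.25 and 0.10 (−0.35 to 0.20 with 1 liver left out) and, in that order, 0, 1, 4, 5, 3 and 2 genes at an unadjusted p under 0.05. Cholesterol synthesis also had 0 of 19 past the threshold, but all 19 differences were above 0, 10 had an unadjusted p under 0.05, 8 (42.1%, against 8.63% of all genes tested) had KO values all above control, and the median was 0.97 (0.59 without control 392 and 1.5 without control 393). The list averaged 0.46, 0.44 and 0.62 in KO mice 312, 332 and 337 and −0.53, −1.21 and 0.22 in control mice 303, 392 and 393, so control 393 lay nearest to KO. Its enzyme Sqle was at 8.58, 8.85 and 9.12 in KO and 7.03, 6.54 and 7.63 in control livers (1.78 ± 0.60, adjusted p = 0.168). The lipid droplet coat protein Plin2 was at 11.84, 11.58 and 11.32 in KO and 11.30, 12.01 and 11.93 in control livers (−0.17 ± 0.40, adjusted p = 0.929), while the fatty acid carrier Cd36 was higher at 2.42 ± 0.61 (adjusted p = 0.0489; when 1 liver was left out it passed only without KO 312 or control 392, up to 0.221). The 3 probe sets of Cd36 gave 1.24 to 2.42, and 0 passed when every probe set was tested on its own. The acute phase protein Saa1, at 0.17 ± 1.02, and the neutrophil gene S100a8, at 0.20 ± 1.0, spread widely within groups, with S100a8 from 7.68 to 8.92 in KO and from 6.43 to 9.49 in control livers.

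**Figure D5:**
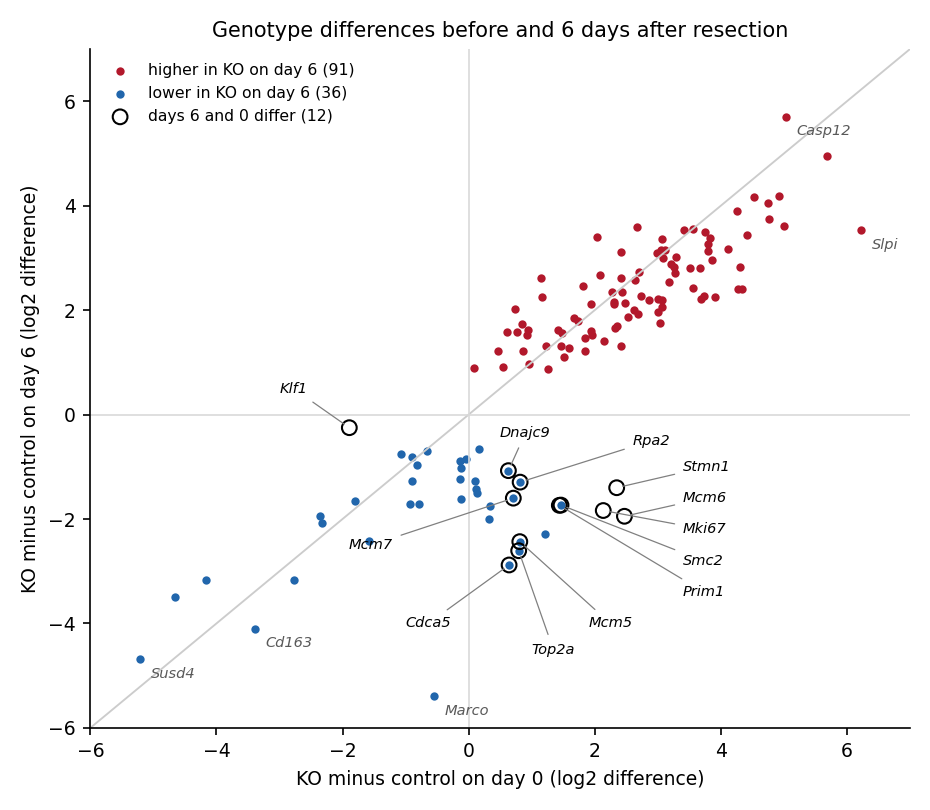
Difference between KO and control on day 0 (horizontal axis, log2) against day 6 (vertical axis, log2) for the 127 genes called on day 6 (red, higher; blue, lower) and the 12 genes whose difference changed between the days (circles); the grey diagonal marks equal differences. The 2 days share no array, but mice 303, 312, 332 and 337 gave samples on both. Of the 91 higher genes, 58 had a smaller difference on day 6 than on day 0 and lie below the diagonal. The circled replication and mitosis genes, chosen for a change in the difference, also lie below it.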

How the data were processed

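Total RNA from 21 mouse liver samples was hybridised to 1-colour microarrays, 1 array a sample. The authors' deposited values are log2 expression per probe set, made with GCRMA, per the submitters' processing notes; its version was not among them. Of 22690 probe sets, 64 were controls, 20380 had 1 gene symbol, 691 several and 1555 none, from GEO's platform annotation. For each of 12393 genes the probe set with the highest mean over all arrays was kept, and the 7320 genes above log2 4 on at least 3 arrays were tested. The deposited arrays number 3 a group (6 for KO on day 0), and that number limits the precision. Limma 3.58.1 in R 4.3.3 fitted 1 model of the 6 groups of genotype and day (lmFit, eBayes, 15 residual degrees of freedom). Tests were two-sided, with Benjamini-Hochberg adjustment over all genes tested and a threshold of 0.05. SE is that of the model. The script was checked on simulated data.

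A mouse number links the day 0 sample to the later sample of 1 animal and pairs no KO mouse with a control. Deviations of mice 312, 332, 337 and 303 from their group means correlated between day 0 and day 6 at 0.157, 0.047, −0.057 and 0.119. With mouse as a random block (within-mouse correlation 0.108), 129 genes passed, 125 of them shared with the 127.

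The genes compared, the 38 lists and the tests were chosen with earlier results of these data known. A list's share set against that of all genes is therefore a description. Genes were named by these rules: Abcb4; up to 15 of the largest fitted differences in each direction that passed without overlap; members of a list that passed, with up to 3 further members of smallest p as values; 18 genes of interest; and up to 5 interaction genes in each direction. Smc2, Dnajc9, Mcm7, Rpa2, Prim1 and Top2a as interaction genes, the cell type markers, and the genes of single livers in the closing section were named after their values were seen. The filter, probe set choice, normalization, variance model, samples fitted and left-out arrays were varied.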

Additional observations from a re-analysis of the deposited data

Results flagged for a closer look

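The genotype difference on day 6 minus that on day 0 passed the test for 12 genes. Fitted changes in log2 units are given here and have no order where values lie under log2 4. Of genes that load or form the replicative helicase, Mcm6 changed by −4.42, Mcm5 by −3.25 and Mcm7 by −2.31. Of other replication genes, the primase subunit Prim1 changed by −3.18 and Rpa2 by −2.11. Of genes of chromosome structure and mitosis, Mki67 changed by −3.97, Stmn1 by −3.75, Cdca5 by −3.52, Top2a by −3.40 and Smc2 by −3.20. With every value under log2 4 set to 4, the changes were −3.55 for Mcm6, −1.47 for Mcm5, −2.87 for Mki67, −1.83 for Cdca5, −1.94 for Top2a, −2.16 for Smc2, −3.06 for Prim1 and 0.90 for Klf1. Dnajc9, a histone chaperone, changed by −1.71, and Klf1 by 1.64. SEs of the fitted changes ranged from 0.26 to 0.76 and adjusted p-values (limma) from 0.00481 to 0.0262.

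In KO livers on day 0, Top2a was 3.97 in mouse 332, while the other 5 lay between 2.94 and 3.21, a gap of 0.738 of the range. All 6 values lie under log2 4. The 6 KO samples of day 0 were examined in this way for 13 genes, and chance marks about 1 in 20 such groups.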

How the results depend on the processing

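The count of 127 genes moved beyond 1.5 times under 2 settings that kept every liver of the comparison: it was 38 when only the 6 livers compared were fitted, 33 of them among the 127, and 275 with array weights. Leaving out 1 liver in turn gave 61 (without KO 337) to 161 (without control 303). The remaining settings gave 94 to 171. For the 12 genes whose difference changed between days, 5 passed with the filter at log2 6, where fewer genes were tested, and 50 with array weights; leaving out 1 array gave 4 to 41. With mouse as a random replicate block, 15 genes passed for this change and 129 for day 6, and the block ended no call of a gene named in the text. Of 59 genes named as passing on day 6, 58 passed with median centring, 59 with quantile normalization, 45 without a filter on low values and 17 when only the 6 livers were fitted; the cause was not tested.

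Some differences that had not passed changed sign. With median centring Alb was at −0.137, Ccnd1 at −0.063 and Saa1 at −0.013, and with array weights Alb was at −0.001. Leaving out 1 liver gave −0.077 to 0.113 for Alb, −0.133 to 0.512 for Ccnd1, −0.488 to 0.732 for Cyp7a1, −0.597 to 0.933 for S100a8, −0.757 to 0.853 for Saa1 and −3.70 to 0.235 for Hamp. With 3 livers a group, and many genes near the lower end of the signal, differences of low genes are bounds and small changes were not detectable.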

Other observations

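Beyond the groups described above, single genes of other lists passed on day 6 (background 1.24% higher and 0.492% lower). Klf6, an immediate-early transcription factor of activated stellate cells and injured hepatocytes, was higher by 2.06 ± 0.48 (SE, adjusted p = 0.0289, limma; when 1 liver was left out it passed only without control 303, up to 0.134), the only one of 30 circadian and immediate-early genes to pass. Blnk, a B cell signalling adaptor, was higher by 2.20 ± 0.42 (adjusted p = 0.00765; 0.0532 without control 393), the only one of 5 tested B and plasma cell genes; the 2 defining markers of these cells lay under log2 4 in all 6 livers. Cela1, a pancreatic-type elastase, was lower (−2.08 ± 0.49, adjusted p = 0.0324; it passed only without control 303, up to 0.17), and the pigment enzyme Dct was at least 2.21-fold lower (adjusted p 0.0531 without KO 312 and 0.0634 without KO 337), with control livers at 4.60, 3.18 and 7.65 in mice 303, 392 and 393.

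Immune lists without a gene past the test were spread widely among control livers. Antigen presentation genes averaged 1.36, −0.32 and −1.44 in control mice 303, 392 and 393, relative to each gene's mean, and neutrophil genes averaged 1.42, 0.54 and −1.53. H2-Aa, an MHC class II chain, was at 11.47, 6.95 and 5.69 in these controls and at 10.36, 9.93 and 9.78 in KO mice 312, 332 and 337.

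In single livers, the iron hormone Hamp was at 6.90 in KO 337, against 14.35 to 14.77 in the other 5. The desaturase Scd1 was at 5.89 in control 392, against 12.20 to 14.19 in the other 5.

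Several called genes were nearest tested neighbours on a chromosome in RefSeq (GRCm38.p6). Casp4 and Casp12, Cav2 and Cav1, and Wfdc15b and Slpi were higher in pairs, and Uap1l1, Entpd2 and Npdc1 (3.13, 2.34 and 3.01) were higher as a run. Cdc42se1 and Prune1 (1.22 and 1.11) and Cd36 and Gnai1 (2.42 and 1.59) were higher in pairs too, and Dct and Tgds (−3.16 and −0.81) lower. Abcb1b (2.26) and Abcb4 (−2.41) are neighbours that went in opposite directions. Whether called genes were neighbours more often than chance would give was not tested.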
